A study of Mus musculus with 3 samples.

Results

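Dense runs are stretches of mouse chromosomes where peaks of the transcription factor Sp9 lay close together. A run was a chain of peaks on an assembled chromosome with less than 10000 bp from the end of one peak to the start of the next, and runs of 5 or more peaks were kept. The members were chosen by the deposited start and end positions alone, so the numbers, spans and gaps below describe the list and were not tested. The rule gave 156 runs with 1029 peaks, out of 19979 peaks in the list and 19880 on assembled chromosomes. Dense runs thus held 5.18% of the placed peaks.

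Sp9 was immunoprecipitated from chromatin of olfactory bulbs of CD1 mice on postnatal days 0 to 2, with a homemade antibody, in 2 libraries. A library of input DNA, made from the same kind of tissue with no antibody, was the control. No other genotype or treatment was part of the series, and the labels leave unsaid which animals went into each library. The olfactory bulb holds interneurons, mitral and tufted cells, glia and vessels, and the list does not say in which of them a site was bound. The file analysed gives each peak that the authors called shared 1 interval (mm9), 1 peak score and 1 gene name. No value per library, no read count and no enrichment over input was analysed, so the depth is unknown and no peak has an error between replicates. How reads that match several copies of a repeated gene were treated is not stated.

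Sp9 belongs to the Sp and Klf family of zinc finger factors, which bind GC boxes and related CACCC boxes. Many promoters of broadly active genes hold several GC boxes, and in the mouse genome such genes often stand side by side with little space between them. Sp9 and its close relative Sp8 are known for their part in the development of olfactory bulb interneurons.

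The runs were split by the names of their peaks, applied in this order. A repeated-family run had ribosomal RNA names, or names sharing a stem with another name of the run, on at least 50% of its peaks. Ribosomal RNA here means the class that RefSeq gives a gene. A single-gene run had 1 name on at least 80% of its peaks, and a gene-dense run at least 3 different names. The rest had 2 names. There were 68 gene-dense runs with 478 peaks, 47 single-gene runs with 284, 25 runs of 2 names with 142, and 16 repeated-family runs with 125.

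To show what the family's sites look like beside genes that name these runs, the 250 bases before the annotated start of 6 genes are printed 5′ to 3′ from RefSeq (GRCm38.p6), with each GC box (GGGCGG, or CCGCCC on the other strand) in capitals. The peaks are in mm9, so whether a peak covers any of these windows was not determined. These genes, picked with their scores known, span many boxes to none.
Zbtb7a: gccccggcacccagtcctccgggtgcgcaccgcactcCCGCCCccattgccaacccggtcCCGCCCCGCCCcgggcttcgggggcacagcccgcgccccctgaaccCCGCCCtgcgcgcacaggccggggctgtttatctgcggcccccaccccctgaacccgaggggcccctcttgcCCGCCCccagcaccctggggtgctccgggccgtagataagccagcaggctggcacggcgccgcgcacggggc
Midn: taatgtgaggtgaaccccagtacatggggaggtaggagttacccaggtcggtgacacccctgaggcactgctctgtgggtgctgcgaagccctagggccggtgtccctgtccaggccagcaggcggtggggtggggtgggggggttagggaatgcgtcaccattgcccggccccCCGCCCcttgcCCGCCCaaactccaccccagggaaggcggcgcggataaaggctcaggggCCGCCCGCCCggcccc
Cactin: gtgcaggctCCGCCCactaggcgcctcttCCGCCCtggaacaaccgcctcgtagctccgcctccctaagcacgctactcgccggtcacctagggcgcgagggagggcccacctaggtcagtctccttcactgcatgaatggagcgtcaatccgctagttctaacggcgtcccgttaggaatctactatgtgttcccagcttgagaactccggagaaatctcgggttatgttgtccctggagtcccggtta
Hoxd9: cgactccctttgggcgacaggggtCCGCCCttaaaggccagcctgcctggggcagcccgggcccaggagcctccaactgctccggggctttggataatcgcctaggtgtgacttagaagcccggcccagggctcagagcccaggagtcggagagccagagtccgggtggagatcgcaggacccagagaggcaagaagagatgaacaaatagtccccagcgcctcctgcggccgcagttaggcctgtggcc
Hist1h1c: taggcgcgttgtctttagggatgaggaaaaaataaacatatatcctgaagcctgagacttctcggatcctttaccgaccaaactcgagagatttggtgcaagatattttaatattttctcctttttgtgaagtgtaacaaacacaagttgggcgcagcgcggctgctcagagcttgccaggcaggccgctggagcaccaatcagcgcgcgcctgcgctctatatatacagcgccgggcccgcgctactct
Hrnr: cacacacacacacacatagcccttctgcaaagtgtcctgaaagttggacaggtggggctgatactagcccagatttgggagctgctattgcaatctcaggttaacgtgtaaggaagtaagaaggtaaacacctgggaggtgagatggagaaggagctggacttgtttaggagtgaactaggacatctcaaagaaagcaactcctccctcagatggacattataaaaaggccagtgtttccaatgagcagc
The Zbtb7a window (chr10:81136021-81136270, plus strand) held 5 GC boxes, that of Midn (chr10:80148022-80148271, plus strand) 4, that of Cactin (chr10:81320853-81321102, plus strand) 2 and that of Hoxd9 (chr2:74697513-74697762, plus strand) 1, overlapping matches counted. The histone gene Hist1h1c (chr13:23738557-23738806, plus strand, listed by RefSeq as H1f2) and the skin gene Hrnr (chr3:93319499-93319748, plus strand) had none in this window, although both named runs. Over the 17492 coding genes with a promoter in the table, 42.7% had a GC box in the same window, and 53.2% had the shorter CACCC box (CACCC, or GGGTG on the other strand; the letters of both motifs can overlap). Of the 411 coding genes that named a dense-run peak, 323 (78.6%) had a promoter in the table. This is under the 80% needed for a comparison of motif shares, so that comparison is void and was not made.

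Most runs were short. Of the 156 runs, 72 had exactly 5 peaks and 32 had 6, while 13 had 10 or more. Just outside the rule lay 134 chains of 4 peaks, with a median score of 165 against 160 in the runs of 5. The largest gap inside a run was 9959 bp and the smallest gap from a run to the next peak outside it was 10339 bp. For all neighbouring placed peaks the median gap was 58223 bp. The plot of run sizes by class shows the long tail.

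**Figure D1:**
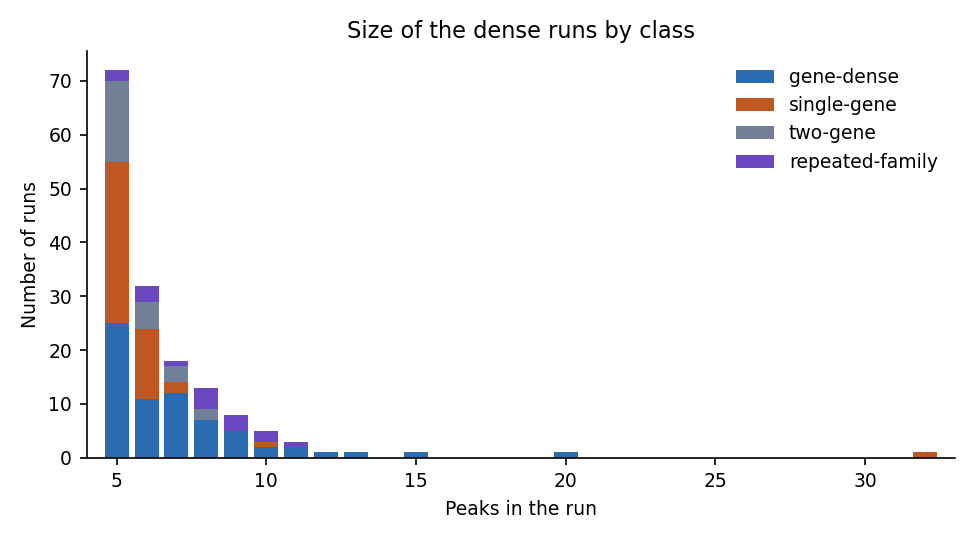
Number of runs (vertical axis) by the number of peaks in the run (horizontal axis), stacked by class (two-gene: runs of 2 names). Most runs hold 5 or 6 peaks; the bar at 32 is the Atg7 run and the bar at 20 the gene-dense run led by Cactin.

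Scores in dense runs were mostly low. The authors' peak score, whose formula is not given, had a median of 176 in dense runs (quartiles 116 and 306) and 213 in the placed peaks outside them. At or above the median of the whole list were 425 of 1029 dense-run peaks, or 41.3% (exact Clopper-Pearson interval 38.3 to 44.4%, counting error only). The share was 50.1% of all placed peaks and 50.6% of the peaks outside runs. The interval treats peaks as independent, although peaks of the same run share their surroundings. Lone peaks, with no neighbour within 10000 bp, had a median of 223, pairs 190, chains of 3 peaks 173, chains of 4 165, runs of 5 160, runs of 6 167 and runs of 7 to 9 169. Runs of 10 or more had a median of 228, and of 200 without the runs named for ribosomal RNA. Peak calling gave both the positions and the scores, so this order is a description with no test.

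The classes differed in score and in shape. Median scores were 183 in gene-dense runs, 163 in single-gene runs, 155 in runs of 2 names and 231 in repeated-family runs. Without the 3 runs named for ribosomal RNA the repeated-family median was 177. The value 3100 recurs exactly on 5 dense-run peaks, although the list holds a higher score, and whether 3100 is a cap is not stated. Scores over 1000 were on 31 of the 1029 dense-run peaks, against 1.11% of all peaks, and 22 of those 31 lay in the 3 ribosomal RNA runs. Single-gene runs were the most compact, with a median span of 15.8 kb and a median gap of 1865 bp, against 30.0 kb and 3613 bp in gene-dense runs. Repeated-family runs had the longest median span, 36.5 kb, with a median gap of 2964 bp. They also had the most peaks per run, a median of 8, against 6 in gene-dense and 5 in single-gene runs. Within a run the highest score was a median of 4.83 times the lowest. First and last peaks of runs had a median of 172 and inner peaks 176.

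**Figure D2:**
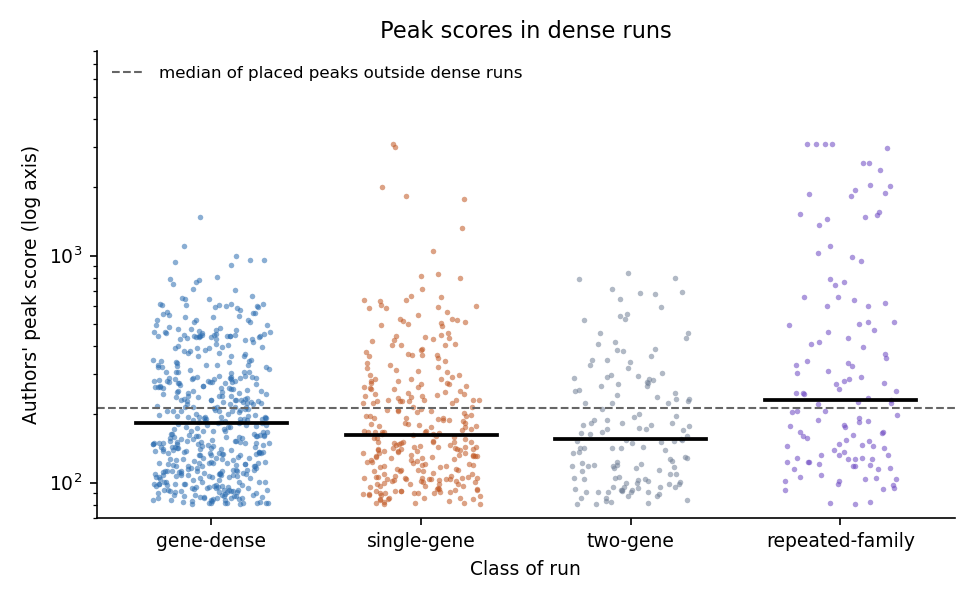
Authors' peak score on a log axis for every dense-run peak, by class of run. Each point is a peak, black lines are medians, and the dashed line is the median of the placed peaks outside runs (213). The repeated-family and single-gene classes reach 3100, a value that 5 dense-run peaks share.

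Gene-dense runs passed over several neighbouring genes each. They were spread over 13 chromosomes and carried 295 different names, with a median of 4 names per run and at most 9. In 65 of the 68 runs at least 2 names were coding genes. From the first to the last coding name of each, both counted, the RefSeq gene order (GRCm38.p6, used for order only) held 290 coding genes. Of these, 260 (89.7%) named a peak of the run. The end genes are named by construction, so this share overstates how many genes between them were named. In 45 of the 65 runs every gene counted was named. Some of these runs had only the 2 end genes and none in between. In these 65 runs 30 coding genes in between named no peak of the run.

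The longest gene-dense run held 20 peaks over 91.9 kb of chromosome 10, from 80771788 to 80863722. Its names were Cactin (5 peaks), the thromboxane receptor gene Tbxa2r (3), Gipc3 (3), the chromatin factor gene Hmg20b (2), Mfsd12 (1), 4930404N11Rik (2), Fzr1 (1), Mir6913 (1) and Smim24 (2). The median score was 193, the lowest 92.0 and the highest, named 4930404N11Rik, 565. The peaks of Cactin scored 120, 181, 216, 470 and 98.7. Fzr1, an activator of the anaphase-promoting complex, had a peak of 430, and Mfsd12 one of 437. High and low peaks stood side by side along the run, and 9 of the 20 were at or above the median of the list.

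The next gene-dense run, also on chromosome 10 (79593633 to 79654288), held 15 peaks with scores from 92.5 to 993 and a median of 260. Midn, the midnolin gene, had the highest peak at 993 and others at 292 and 138. Cirbp, a cold-inducible RNA-binding protein, had 4 peaks at 290, 191, 148 and 442. Efna2, an ephrin ligand of axon guidance, had 3 at 290, 92.5 and 401. Cbarp had 3 at 260, 147 and 307, while Atp5d, a subunit of the mitochondrial ATP synthase, had 1 at 97.2 and 1600002K03Rik 1 at 248. Peaks at or above the median of the list were thus 9 of 15, and 5 of the 6 names had at least 1.

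A run of 13 peaks on chromosome 8 (73278193 to 73329451) named Rab3a, a small GTPase of synaptic vesicles, at 263, and Pik3r2, a regulatory subunit of PI3 kinase, with 4 peaks at 159, 122, 80.3 and 230. Its highest peak, 380, was named for the kinase gene Mast3. The other names were Mpv17l2 (323), Ifi30 (228), 2010320M18Rik (201 and 87.7), Mir7240 (346) and Il12rb1 (157). A run of 12 peaks on chromosome 10 (79773328 to 79823615) was led by 2310011J03Rik (954, 443, 126 and 306) and also named Pcsk4 (266), Reep6 (157 and 161), Adamtsl5 (462 and 223) and the polo-like kinase gene Plk5 (441, 106 and 153). Dda1, with a highest score of 711, led 11 peaks on chromosome 8 (73985171 to 74019671), where Abhd8, Mrpl34, Ano8 and Gtpbp3 were the other names. None of the 68 gene-dense runs had all of its peaks above the median of the list.

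The sixth long gene-dense run fell in this class only by its names. It held 11 peaks on chromosome 4 (88419077 to 88452688) named Gm13285, Gm13290, Gm13276, Gm13279, Gm13275, Gm13287 and Ifnz, the interferon zeta gene. The first 6 are numbered gene models whose shared stem the rule does not count. The median score was 360, between 123 and 806. Gm13290, with 577 and 269, named peaks at both ends of the run, and Gm13285 and Gm13279 also recurred at separated positions. The middle quartiles of the distance between peak starts were 2843 and 3220 bp. How alike these genes are in sequence was not examined. Since the treatment of reads matching several copies is not stated, which of these genes a peak belongs to is uncertain.

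A stretch of chromosome 10 held 11 of the 68 gene-dense runs. Between 78 and 82 Mb this chromosome had 241 placed peaks, of which 130 (53.9%) were in 15 runs, and these were 12.6% of all dense-run peaks. The 15 runs reached from 79316877 to 81112273 and carried 60 names. Besides the gene-dense runs, 3 had 2 names and 1 was single-gene. Their median score was 173, the lowest 81.2 and the highest 993. Other names there included Grin3b, an NMDA receptor subunit, with 4 peaks, Arid3a with 4, the kisspeptin receptor gene Kiss1r, and Klf16, a relative of Sp9, whose peak was the highest of its run with 609. On chromosome 8 the window from 72 to 74 Mb had 6 runs with 48 of its 108 peaks.

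Across chromosomes the share of placed peaks in dense runs was 13.3% on chromosome 10, 12.2% on chromosome 8 and 10.3% on chromosome 19, against 5.18% in all. It was 0.642% on chromosome 12, 0.746% on chromosome 14 and 0.990% on chromosome 16, each with 1 run. Chromosome X had 2 runs with 12 of 789 peaks. Of the 156 runs, 33 lay within 50 kb of another run.

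**Figure D3:**
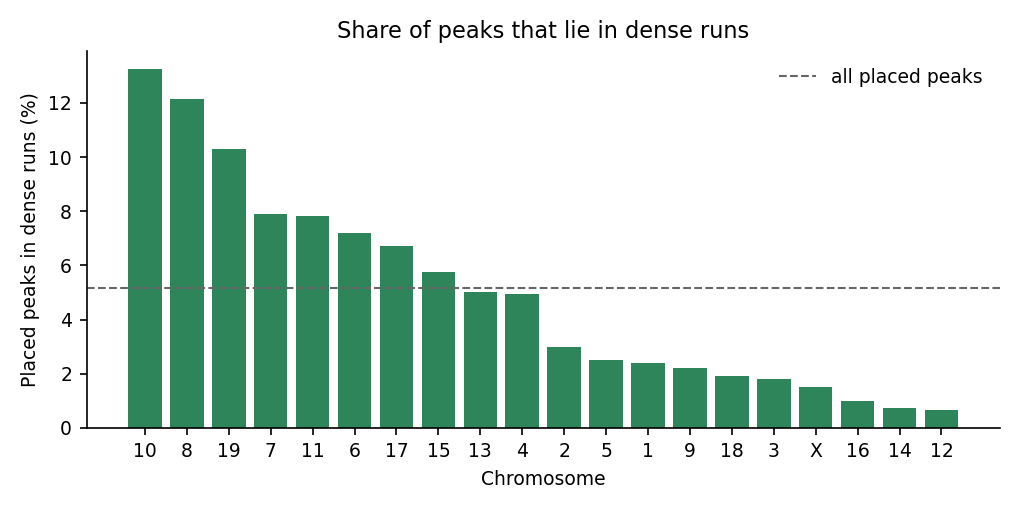
Percent of the placed peaks of each chromosome that lie in dense runs, with chromosomes ordered by that share. The dashed line is the share over all placed peaks (5.18%); chromosomes 10, 8 and 19 stand highest, and chromosome Y, with 2 peaks and no run, is left out.

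Single-gene runs lay on 18 chromosomes and named 63 genes in all. The largest was that of Atg7, which encodes an enzyme of autophagy, with 32 of its 33 listed peaks over 92.1 kb of chromosome 6 (114492814 to 114584902). The lowest score was 81.6, the median 198 and the highest 1051, and 15 of the 32 were at or above the median of the list. Only 1 peak passed 1000, and the next highest were 524 and 489. The run next to it on the same chromosome, with 6 peaks, was named Hrh1, a histamine receptor gene (114447083 to 114462240). Its scores were 83.3, 390, 120, 80.4, 102 and 129, so that the Hrh1 run was weak apart from 1 peak.

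Plec, the gene of the cytoskeletal linker plectin, had 10 of its 12 peaks in a run of 37.2 kb on chromosome 15 (76002337 to 76039501). The strongest, 1325 and 635, stood side by side near one end, and the other 8 lay between 92.5 and 244. Zbtb7a, a zinc finger repressor, had 6 peaks on chromosome 10 (run from 80591600 to 80617250) with scores of 115, 131, 640, 86.0, 609 and 168, and the seventh peak of that run was named Pias4 (309). Fam101a, which RefSeq lists as Rflna, had 7 peaks on chromosome 5 (125483505 to 125509896), all from 89.9 to 209, none above the median of the list. Scarf2 had 5 peaks on chromosome 16 (run from 17796959 to 17816342) with a highest score of 795, beside B830017H08Rik with 406. In the Plec and Zbtb7a runs 3 peaks each lay above the median of the list, in the Scarf2 run 5 of 6.

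Hrnr, the gene of the skin protein hornerin, whose coding sequence is itself made of repeated units, had 6 peaks in 13.2 kb of chromosome 3 (93083931 to 93097154). Scores were 497, 208, 322, 546, 2015 and 310, and peaks covered 83.9% of the run. Ttr, the transthyretin gene of the choroid plexus and liver, had 6 of its 7 peaks in 15.3 kb of chromosome 18 (20773120 to 20788443), with scores of 3020, 444, 167, 286, 261 and 242. Its first peak was 5578 bp wide. In both runs 1 wide peak far exceeded its neighbours, and over all single-gene runs peaks covered a median of 32.6% of the span.

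Genes of developmental transcription factors named some single-gene runs. The examples here were picked out with their scores known. The share of such genes among the names of runs or of all peaks was not counted. Otp, a homeobox gene of the hypothalamus, had 5 peaks at 172, 106, 189, 378 and 597 on chromosome 13 (95638189 to 95656155). Otx1, a homeobox gene of the forebrain, had 362, 151, 130, 288 and 107 on chromosome 11 (21892483 to 21905074). Pax7, a paired-box gene of dorsal neural tube and muscle, had 312, 130, 145, 104 and 280 on chromosome 4 (139377033 to 139389727). Pitx1, a homeobox gene of hindlimb and pituitary, had 141, 181, 123, 601 and 112 on chromosome 13 (55926443 to 55937650). Gata2, a factor of blood and of some neurons, had 427, 509, 335, 152 and 81.1 on chromosome 6 (88139285 to 88150805). Irx5 had 4 peaks at 272, 516, 90.9 and 91.9 beside 1 of 403 named Crnde. These runs were short, from 10.3 kb for Irx5 to 18.0 kb for Otp, and in each at least 1 peak lay below and 1 above the median of the list.

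Runs of 2 names included other genes of this kind, also picked with their scores known and not counted. Sox1, a factor of neural progenitors, had 4 peaks at 136, 304, 646 and 91.3 on chromosome 8, beside Gm5607 with 593 and 99.3. Tbx2, a T-box factor, had 348, 339, 243 and 184 on chromosome 11, and Pou3f3, a POU factor of neural tissue, had 155 and 799 on chromosome 1 next to the non-coding gene Pantr1 with 173, 153 and 85.7. The largest runs of this class were Kcnn1, a potassium channel gene, with Ccdc124 (8 peaks on chromosome 8, 96.2 to 290), and Tnfrsf25 with Espn (8 peaks on chromosome 4, 80.2 to 835). They were followed by Bbc3, a gene that promotes cell death, with Ccdc9 (7 peaks, 156 to 417), Timm13 with Tmprss9 (7 peaks, 93.4 to 331) and Mfap2 with Crocc (7 peaks, 92.5 to 363). The highest score in this class was the 835 of Espn, an actin-bundling protein of hair cells.

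Among the repeated-family runs, those named mainly for genes classed as ribosomal RNA stood highest. The Gm25018 run on chromosome 8 (126060913 to 126148393) held 11 peaks, 7 named Gm25018, 2 Gm22291, 1 Gm25212 and 1 Rhou. RefSeq classes the first 3 genes as ribosomal RNA. The median score was 2390, the lowest 469 and the highest 3100, and all 11 were at or above the median of the list, which was so in no other dense run. The median gap was 75 bp and peaks covered 98.7% of the 87.5 kb, so that the run was close to a continuous block. The Rhou peak, 1517, was 19843 bp wide. Which copy of the array a peak belongs to is uncertain.

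Rn4.5s, which RefSeq also classes as ribosomal RNA, named 2 runs on chromosome 6, of 9 peaks (47600316 to 47636662) and 10 peaks (47689127 to 47723327). In the first run the scores were 168 for the lowest, 1486 for the median and 2042 for the highest, and in the second 103, 1678 and 3100. Starts of neighbouring peaks were a median of 3988 bp apart in the first and 4190 bp in the second. In the first run 1 peak lay below the median of the list, and in the second 2, at 206 and 103. No placed peak outside dense runs carried a ribosomal RNA name.

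**Figure D4:**
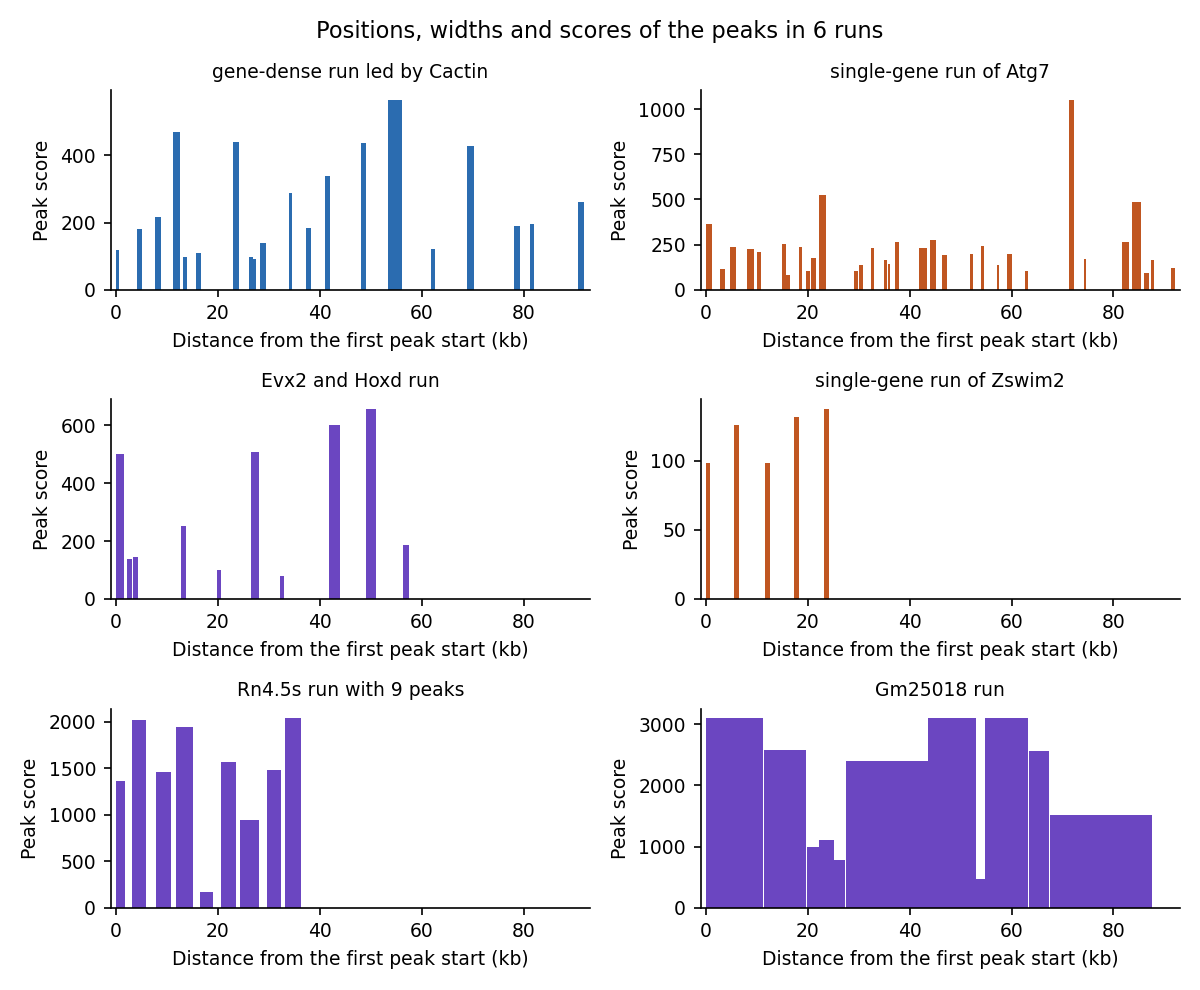
Peaks of 6 runs drawn to scale: the horizontal axis is the distance in kb from the start of the first peak, bar width is peak width and bar height the authors' peak score, with a separate vertical scale per panel. The Cactin, Atg7 and Hoxd panels show separate narrow peaks of uneven height, the Zswim2 panel 5 evenly spaced peaks, the Rn4.5s panel 8 high peaks and 1 low, and the Gm25018 panel a nearly continuous block.

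The Hox clusters, which hold homeobox genes that pattern the body axis and are silent in most of the forebrain, gave 4 runs. All of these lay in the Hoxa and Hoxd clusters, and no Hoxb or Hoxc gene named a dense run. On chromosome 2 from 74493223 to 74550708, 10 peaks named Evx2 (503, 136 and 145), Hoxd13 (254), Hoxd12 (98.7), Hoxd11 (509), Hoxd10 (80.8), Hoxd9 (603), Hoxd8 (657) and Hoxd3 (185). All 8 coding genes from its first to its last named gene, both counted, named a peak, the end genes by construction. A further run on that chromosome (74565204 to 74602164) named Mir10b (277, 179 and 123), LOC102634401 (450, 148 and 168) and Hoxd1 (513). On chromosome 6, the run from 52166491 to 52196865 named Hoxa7 (154 and 158), Hoxa9 (276), Hoxa10 (622), Hoxa11os (331) and Hoxa11 (127), and that from 52107971 to 52125985 named Hotairm1 (187), Hoxa2 (207 and 81.6) and Hoxaas2 (114, 164 and 86.4). The highest peaks of these runs were thus named Hoxd8, Hoxa10 and Hoxd9, while Hoxd10 and Hoxa2 had peaks near the lowest score of the list.

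Clusters of histone genes, which are active when DNA is replicated, gave runs with no score above 327. The median was 204 in the Hist1h4h run and 147 in the Hist1h1c run, against 176 in all dense runs. On chromosome 13 from 23622630 to 23668181 each of 9 peaks carried a different histone name, from 94.6 for Hist1h1d to 304 for Hist1h3f. A run of 6 peaks on that chromosome (23830452 to 23854564) named Hist1h1c, Hist1h3c, Hist1h2ab, Hist1h3b, Hist1h4a and Hist1h3a with scores up to 327. Keratin-associated protein genes of hair gave a run of 8 peaks on chromosome 11 (99475605 to 99527386), where Krtap4-7 had 231 and 94.2 and the other peaks lay from 102 to 127. A second stretch of that cluster (99633250 to 99688290), gene-dense by its names, had 8 of 9 peaks at 194 or lower and 1, named Gm11564, at 1485, the highest score of the gene-dense class. Members of these families resemble each other in sequence, so the naming of single copies is uncertain.

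The other repeated-family runs joined names that share a stem, of several kinds. Cbx2 and Cbx8, subunits of the Polycomb repressive complex, shared 9 peaks on chromosome 11 (118883831 to 118920432), Cbx2 with 509 and 228 and Cbx8 with 7 from 114 to 603. Hmx2 and Hmx3, homeobox genes, lay with Bub3 in a run of 8 peaks over 19.1 kb on chromosome 7 with a median of 233. Wnt10a had 7 peaks and Wnt6 1 in a run on chromosome 1 with scores from 121 to 371. In the Pcdhgb run on chromosome 18, Pcdhgb6, a clustered protocadherin of neuronal recognition, had 640 while the other 4 peaks lay from 81.5 to 129. The kinase genes Mapk11 and Mapk12 led a run with a median of 168 and a highest score of 407, on a peak named Plxnb2. Eid2 and Eid2b led one with a median of 180 and a highest score of 398, on a peak named BC089491. Zinc finger genes led the remaining 2 runs, which are in this class only by the stem Zfp. A shared stem of this kind does not by itself make a repeated family. The run of Zfp524, Zfp784 and Zfp865 had a median of 199 and a highest score of 661, named Zfp784. The run of Zfp553 and Zfp771 had a median of 312 and a highest score of 744, on a peak named Dctpp1. Gm4532, also without the stem, named a peak of 415 there.

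Even spacing was rare. The coefficient of variation of the distance between peak starts had a median of 55.9% over the 156 runs and was under 20% in 7 of them. It was lowest, 3.09%, in the run of Zswim2 on chromosome 2 (83806521 to 83830621), and the next lowest was 14.2%. Starts of its 5 peaks were 5569, 6007, 5779 and 5784 bp apart, their widths lay from 890 to 1054 bp, and their scores were 98.3, 126, 98.4, 132 and 138. All 5 were thus weak peaks of nearly equal width and height. In the RefSeq gene order, Zswim2 is followed directly by a series of pseudogenes. Any link between this order and the spacing of the peaks was not tested. The Rn4.5s run of 9 peaks was also among the 7, with 16.6%, as was the Krtap4-7 run with 17.6%.

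Of the runs with transfer RNA genes among their neighbours, 1 held scores over 1000. Mir6546 named 5 peaks on chromosome 1 (172993837 to 173011836) with scores of 3100, 135, 1769, 526 and 1827. The 3100 is the top value of the single-gene class. In the RefSeq gene order, its gene stands among transfer RNA genes. BC107364, with transfer RNA genes on both sides, had 118, 224, 367, 216 and 169 on chromosome 3 (96253651 to 96264866). In all, 9 runs had a name with a transfer RNA gene within 5 genes on either side. The 8 other than the Mir6546 run had median scores from 166 to 260 and highest scores from 291 to 993. Such a neighbour was found for 21 of 474 names in dense runs (4.43%) and 394 of 12876 names used only outside them (3.06%). This feature was looked at with the scores known.

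MicroRNA names were on 69 dense-run peaks (6.71%), and on 2.10% of the placed peaks outside runs. They belonged to 29 genes, all with mature sequences in RefSeq. Their 54 mature forms had 53 different seeds, so the names do not form a seed family; the 1 shared seed was that of miR-6990-5p and miR-7032-5p. The mature sequences printed here (5′ to 3′, seed at bases 2 to 8 in capitals) are 7 examples picked with the scores known, from the runs described next.
mmu-miR-9-5p: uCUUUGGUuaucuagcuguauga
mmu-miR-10b-5p: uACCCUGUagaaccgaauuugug
mmu-miR-181c-5p: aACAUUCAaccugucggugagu
mmu-miR-23a-3p: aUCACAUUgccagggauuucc
mmu-miR-212-3p: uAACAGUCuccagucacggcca
mmu-miR-338-3p: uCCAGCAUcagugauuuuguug
mmu-miR-3065-5p: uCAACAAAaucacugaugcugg
Mir9-3, a microRNA gene of neural progenitors, had peaks of 239 and 225 on chromosome 7, between peaks of 95.6 and 527 named AI854517. In a run on chromosome 8 (86707209 to 86737087) Mir181c had 479 and 128, Mir23a 141 and 439 and Mir3074-2 162. Mir212 had 521 in a run on chromosome 11 (74978244 to 74992974) with Hic1, a zinc finger repressor, at 960, 664 and 132. Mir338 (83.8) and Mir3065 (4 peaks from 105 to 247) shared a run; their printed mature forms come from opposite strands of nearly the same bases of chromosome 11, so which of them a peak is named for rests on small differences in position. Runs with microRNA names had no common level: Mir6546 reached 3100 while the 5 peaks of Mir7032 stayed from 80.7 to 121.

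Few of the listed genes of olfactory bulb cell types named dense runs, and few of all coding genes did. Of 36 transcription factors of bulb interneurons, 35 had a peak somewhere in the list and 1 named a dense run, which is 2.86% of the 35. It was Nr4a2, a nuclear receptor of dopaminergic neurons, with 92.3, 231, 458, 122 and 589 on chromosome 2 (56954693 to 56976915). Of all 21900 coding genes 411 (1.88%) did so, and of those with any peak 3.39%, so the count of interneuron factors is near that of coding genes. None of the 28 listed migration and guidance genes did, though 26 had a peak. Efna2, a guidance gene outside this list, named 3 dense-run peaks. None of the 22 glial or of the 18 microglial and vascular genes named a dense run, and 17 and 5 had a peak. Against a share of 3.39%, nothing is read from counts of 0 in lists of this size. Of 17 genes of mitral and other glutamatergic neurons, Neurod2 (81.8, 643, 189 and 233) and Slc17a7 (150 and 143) did, 14.3% of the 14 with a peak. This share is above 3.39% but rests on 2 genes, so nothing is read from it. Of the 30 listed chromatin and general transcription genes 1 did, the histone demethylase gene Kdm6b (87.4 and 267). This list is not complete: Cbx2, Cbx8 and Hmg20b, described above, are outside it and also named dense runs. The Hox genes had the highest share of these lists, with 13 of 39, or 13 of the 32 that had a peak (40.6%). All 13 were Hoxa or Hoxd genes, and no Hoxb or Hoxc gene named a dense run. Close neighbours in a cluster enter a run together by the rule, so this share is not comparable with that of scattered genes. The lists were chosen with earlier results known, so these counts are a description.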

How the data were processed

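The authors deposited 1 list of 19979 peaks called shared, with the position, score and gene name of each. Per the submitters' processing notes, Bowtie2 2.2.4, MACS 1.4.2 and build mm9 were used, with no roles or settings. How a shared peak was defined, how the deposited score was computed and which annotation named the peaks is not stated. Coordinates are those of the deposited list (0-based or 1-based counting is not stated).

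The 99 peaks on unplaced sequence were left out of runs. Runs were built and classed with Python 3.11.15 and pandas 2.3.3. Stems were symbols without their final number and letters, at least 3 letters long; Mir, Tmem, Ccdc, Fam, Gm and names ending in Rik did not count. Names were matched to RefSeq (GRCm38.p6) by symbol, then by a synonym of only 1 gene: 471 of 474 names in runs matched. The run and class steps were tested on simulated data. The members and lists were chosen with earlier results of these data known. Named are the 6 runs with most peaks of each class, the run with the highest peak of each class, the 10 runs with most peaks, and listed genes in runs; other genes were picked with values known. Depth per library is unknown. No test was made, since the positions and the score come from 1 peak calling.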

Additional observations from a re-analysis of the deposited data

How the results depend on the processing

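The number of runs and peaks depends on the rule, by its construction. With gaps under 5000 bp there were 397 peaks in 63 runs (19 gene-dense, 30 single-gene and 3 repeated-family), and with gaps under 20000 bp 2327 peaks in 315 runs (190 gene-dense and 31 repeated-family). With only peaks at or above the median score, 83 peaks in 12 runs were left, 4 of each of these 3 classes. Runs of 4 or more gave 1565 peaks in 290 runs (100 single-gene and 25 repeated-family), and runs of 7 or more 477 peaks in 52 runs (32 gene-dense and 4 single-gene). With 1 name required on every peak, 31 single-gene runs were left. Merging touching peaks changed nothing, since no peaks touch. The percent of dense-run peaks at or above the median of the list was 41.3% under the main rule. In the 6 other settings that give one, it ran from 39.8% without ribosomal RNA runs to 44.1% with gaps under 5000 bp. The setting without ribosomal RNA runs was added after the data had been seen. All settings share peaks with the main rule, so this range is no independent check. Leaving out a library was not run, because the list holds no value per library. No paired analysis was possible because the list holds no value per library and the input has 1. The unknown depth limits any statement on peaks that were not called.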
